A study of Mus musculus with 13 samples.

Results

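The genes described here are the 8 core genes of the brain endocannabinoid system: the cannabinoid receptor Cnr1, the synthesizing enzymes Dagla, Daglb and Napepld, and the breakdown enzymes Mgll, Abhd6, Abhd12 and Faah. They were chosen by name and function, by a rule that uses no measured value although earlier results of these data were known, and are 8 of the 22682 gene symbols listed in all 13 libraries. All 8 also passed the filter on low counts, which kept 14317 genes for the comparison of genotypes. The libraries came from the medial habenula, a small nucleus of the epithalamus whose neurons project to the interpeduncular nucleus, and the study asked how loss of the orphan receptor Gpr151 changes the mRNAs translated there.

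Endocannabinoids are lipids made on demand from membrane phospholipids, and they usually signal backwards across a synapse, from the postsynaptic cell to presynaptic terminals. The principal ones are 2-arachidonoylglycerol (2-AG) and anandamide. 2-AG is made from diacylglycerol by the diacylglycerol lipases and removed by serine hydrolases, while anandamide is released from its phospholipid precursor by Napepld, among other routes, and removed by Faah. Both act on the CB1 receptor encoded by Cnr1, a Gi/o-coupled receptor that lowers transmitter release. CB1 has been described in habenular axons that end in the interpeduncular nucleus.

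The groups were 6 immunopurified (IP) libraries of Gpr151-KO::Chat-TRAP DW167 mice (KO IP), 6 IP libraries of Chat-TRAP DW167 mice without the knockout (WT IP), and 1 library of total homogenate RNA from Chat-TRAP DW167 mice (input). Every animal was adult, older than 8 weeks, and all groups carried the Chat-TRAP transgene. In TRAP (translating ribosome affinity purification) a GFP-tagged ribosomal protein, here under the control of the choline acetyltransferase gene Chat, allows polysomes of the expressing cells to be precipitated with anti-GFP beads. The IP therefore reads mRNA on ribosomes of Chat-expressing cells, plus whatever RNA binds without the tag. Each library pooled 4 mice, or 3 mice for libraries 852 and 855. There was no input of knockout mice, so both IP groups were set against the same wild-type input. The labels used here do not state the sex of the mice.

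A short coding stretch of each gene is given because it identifies the catalytic or coupling core that places the gene in its role. The bases come from GENCODE M21 transcripts, 5′ to 3′ on the coding strand, and coordinates are GRCm38. In Cnr1 the capitals mark the aspartate, arginine and tyrosine codons of the motif that couples class A receptors to G proteins. In the diacylglycerol lipases and the 2-AG hydrolases they mark the codons of the active-site serine and its neighbours. In Napepld they mark codons of a histidine and aspartate motif typical of metal-dependent hydrolases, and in Faah codons of the glycine- and serine-rich signature of amidases.
Cnr1: acggccatcGACAGGTACatatccatt
Dagla: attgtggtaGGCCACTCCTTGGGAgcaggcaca
Daglb: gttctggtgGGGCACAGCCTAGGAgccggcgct
Mgll: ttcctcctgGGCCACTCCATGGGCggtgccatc
Abhd6: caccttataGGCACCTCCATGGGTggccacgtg
Abhd12: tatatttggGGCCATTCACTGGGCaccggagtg
Napepld: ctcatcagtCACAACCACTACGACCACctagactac
Faah: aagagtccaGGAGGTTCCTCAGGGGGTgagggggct

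The Cnr1 stretch lies at chr4:33944244-33944270 on the plus strand. That of Dagla lies at chr19:10254890-10254922 on the minus strand and that of Daglb at chr5:143494554-143494586 on the plus strand. The Mgll stretch runs across an intron within chr6:88808127-88809347 (plus strand), and that of Abhd12 across an intron within chr2:150838775-150839748 (minus strand). The Abhd6 stretch is at chr14:8042730-8042762 (plus strand). Those of Napepld and Faah are at chr5:21675817-21675852 and chr4:116005116-116005151, both on the minus strand. The printed bases are all coding; the intronic bases of Mgll and Abhd12 are not shown.

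Gene counts per library were 32623249 to 64388596 in KO IP, 28375912 to 58502055 in WT IP and 54701790 in the input, and values are given as CPM, counts scaled to a common total per library. Gpr151 itself was at 140 ± 37.6 CPM in KO IP and 433 ± 77.4 CPM in WT IP (SD, n = 6 each), a log2 fold change of -1.63 ± 0.17 (SE; edgeR quasi-likelihood test, adjusted p = 0.00592). It was not lost from the libraries labelled KO, where it stayed above the wild-type input of 53.4 CPM in 6 of 6 libraries (105 to 197 CPM). Of 12 markers of medial habenula and cholinergic cells, 11 were at least 2 times higher in every WT IP library than in input. Of 25 markers of astrocytes, oligodendrocytes and their precursors, microglia and vessels that passed a minimum of 5 CPM, 17 were at no more than 0.5 times the input in every WT IP library. These were 4 of 8 for astrocytes, 7 of 8 for oligodendrocytes, 3 of 4 for precursors, 3 of 4 for microglia and 0 of 1 for vessels. The summed level of all 34 such non-neuronal markers still ranged from 339 to 3120 CPM in KO IP and from 316 to 1763 CPM in WT IP, against 4363 CPM in input. None of the 34 was at 0 in every IP library. Their mean log2 CPM, used below as a non-neuronal score, was 2.39 ± 1.21 in KO IP and 1.78 ± 0.89 in WT IP (SD, n = 6 each; two-sided exact permutation p = 0.327, smallest possible 0.00216). It was highest in KO libraries 1099 and 1102 and in WT library 1091.

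Cnr1 (ENSMUSG00000044288.6, chr4:33924593-33948831, plus strand) was well represented on the precipitated polysomes, above the homogenate in every IP library and with overlapping values in the genotypes. Its lowest, median and highest values were 72.0, 96.1 and 147 CPM in KO IP and 85.3, 99.3 and 139 CPM in WT IP, against 57.4 CPM in input. All 12 IP libraries thus lay above the input, and the genotypes overlapped over nearly their whole range. The lowest value was in KO library 1102 and the highest in KO library 1100. On the scale log2((IP CPM + 1)/(input CPM + 1)), the median IP over input of Cnr1 was 0.73 in KO IP (0.32 to 1.34) and 0.78 in WT IP (0.56 to 1.26). These are folds of 1.65 and 1.72, below the 2 times in all 6 libraries that was required to call a gene enriched. The log2 fold change of KO over WT was -0.060 ± 0.17 (SE), with a 95% interval of -0.43 to 0.31 and an unadjusted p of 0.734 in edgeR's quasi-likelihood test. A rise or a fall within these bounds could not be told from no change.

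**Figure D1:**
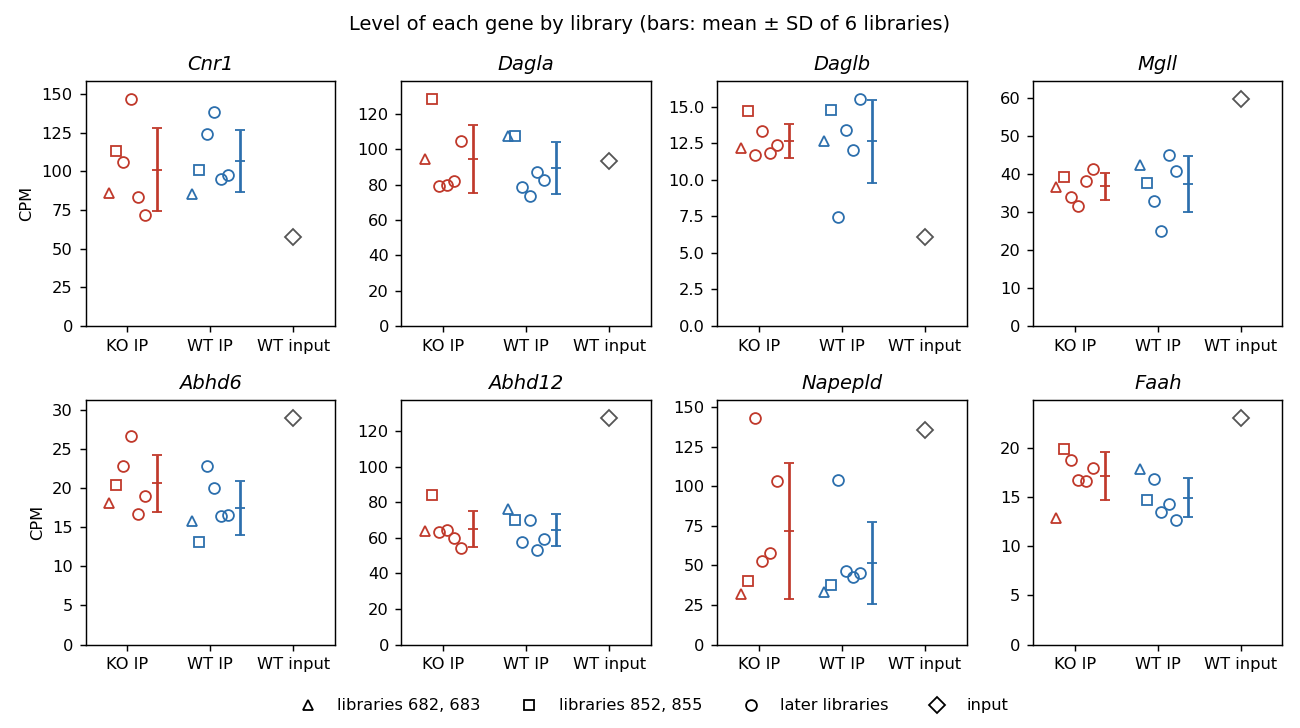
CPM of each of the 8 genes in every library (linear axes from 0), with KO IP left of WT IP and the single input at the right. Points are libraries, symbols are library sets and bars are mean ± SD of 6 libraries. The genotypes overlap in every panel, Cnr1 and Daglb lie above the input in all 12 IP libraries, and Napepld has the widest spread, 31.8 to 143 CPM in KO IP.

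The diacylglycerol lipases, which make 2-AG, differed between themselves in level and in their relation to input. Dagla (ENSMUSG00000035735.10, chr19:10245265-10304877, minus strand), the isoform responsible for most synaptic 2-AG in the adult brain, was at 79.3, 88.2 and 128 CPM (lowest, median, highest) in KO IP. In WT IP it was at 73.9, 84.9 and 108 CPM, against 93.4 CPM in input. The input fell inside the range of both IP groups, with 3 of 6 KO libraries and 2 of 6 WT libraries above it. The highest value was in KO library 855. Its median log2 IP over input was -0.09 in KO IP and -0.14 in WT IP. The log2 fold change of KO over WT was 0.10 ± 0.11 (SE), with a 95% interval of -0.14 to 0.34 and an unadjusted p of 0.368 (edgeR).

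Daglb (ENSMUSG00000039206.13, chr5:143464584-143505942, plus strand), the lipase known mostly from microglia and macrophages, had the lowest CPM of the 8 genes in input and was above the input in every IP library. It was at 11.7, 12.3 and 14.7 CPM in KO IP and 7.44, 13.04 and 15.5 CPM in WT IP, against 6.09 CPM in input (95% exact Poisson interval 5.45 to 6.78, counting error only). The KO values were tightly grouped and lay inside the WT range, whose lowest value came from library 1091. On the log2 scale its median IP over input was 0.90 in KO IP and 0.99 in WT IP, folds of 1.87 and 1.98. The log2 fold change of KO over WT was 0.024 ± 0.17 (SE), with a 95% interval of -0.34 to 0.39 and an unadjusted p of 0.890 (edgeR). Reads of Daglb may be shared with Rac1 on the opposite strand, which overlaps 24.1% of its exon bases, since the sources used here do not say if the counting was stranded. Per kilobase of all annotated exons, the ratio of Dagla to Daglb was 12.4 ± 1.77 in KO IP and 12.3 ± 3.25 in WT IP (SD, n = 6 each), against 25.5 in input. It depends on the length used, as Daglb has 9567 exon bases but 4877 in its longest transcript. By longest transcript the WT IP means per kilobase were 54.3 for Dagla and 8.81 for Daglb, against 68.9 and 5.80 by all exons.

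The 2-AG hydrolases were all below the homogenate in every IP library. Mgll (ENSMUSG00000033174.17, chr6:88724412-88828360, plus strand) encodes monoacylglycerol lipase, which removes most 2-AG in the brain and sits largely in presynaptic terminals and in astrocytes. It was at 31.4, 37.3 and 41.1 CPM in KO IP and 24.95, 39.2 and 44.9 CPM in WT IP, against 59.6 CPM in input. The KO values lay inside the WT range, and all 12 IP values lay below the input. The median log2 IP over input was -0.66 in KO IP and -0.59 in WT IP. The log2 fold change of KO over WT was 0.0066 ± 0.14 (SE), with a 95% interval of -0.31 to 0.32 and an unadjusted p of 0.964 (edgeR).

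Abhd6 (ENSMUSG00000025277.14, chr14:8002902-8056763, plus strand), a membrane hydrolase found at postsynaptic sites of neurons, was at 16.7, 19.7 and 26.7 CPM in KO IP. It was at 13.1, 16.5 and 22.8 CPM in WT IP, against 29.0 CPM in input. The groups overlapped, although 2 KO libraries, 1100 and 1099, lay above or level with the highest WT library. Its IP over input had a log2 median of -0.54 in KO IP and -0.78 in WT IP. Its log2 fold change of KO over WT was 0.27 ± 0.15 (SE), with a 95% interval of -0.06 to 0.59 and an unadjusted p of 0.0963 (edgeR), the smallest of the 8 genes. Without WT library 1091 that p was 0.0471 and without KO library 1101 it was 0.0384. In these fits 7.15% and 3.95% of all genes had an unadjusted p under 0.05 (edgeR). The adjusted p of Abhd6 stayed between 0.690 and 1 over all alternatives.

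Abhd12 (ENSMUSG00000032046.15, chr2:150832493-150904741, minus strand), which hydrolyses lysophosphatidylserine as well as 2-AG, had the highest mean level per kilobase of the 8 genes in KO IP and in WT IP, and the highest level in input. It was at 54.4, 63.5 and 84.1 CPM in KO IP and 53.1, 64.7 and 76.0 CPM in WT IP, against 127 CPM in input. The groups shared nearly the same range apart from KO library 855, the highest, and every IP library lay below the input. The median log2 IP over input was -0.99 in KO IP and -0.97 in WT IP, folds of 0.503 and 0.510. In an edgeR fit in which the single input was taken to vary like the IP libraries, Abhd12 alone of the 8 genes had an adjusted p under 0.05, which has no replicate behind it on the input side. Its log2 fold change over input there was -0.96 in KO IP (adjusted p = 0.0201) and -0.98 in WT IP (adjusted p = 0.0133). The share of all genes called lower in this fit was 5.10% in KO IP and 9.11% in WT IP, and the share called higher was 6.32% and 8.44%. Between genotypes the log2 fold change was 0.027 ± 0.11 (SE), with a 95% interval of -0.22 to 0.28 and an unadjusted p of 0.806 (edgeR). Of the summed level per kilobase of the 2-AG hydrolases, Abhd12 made up 58.9% ± 3.48 in KO IP and 60.6% ± 4.97 in WT IP (SD, n = 6 each), against 65.3% in input. Mgll made up 18.7% ± 2.84 in KO IP and 19.6% ± 4.28 in WT IP, against 17.0% in input.

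**Figure D2:**
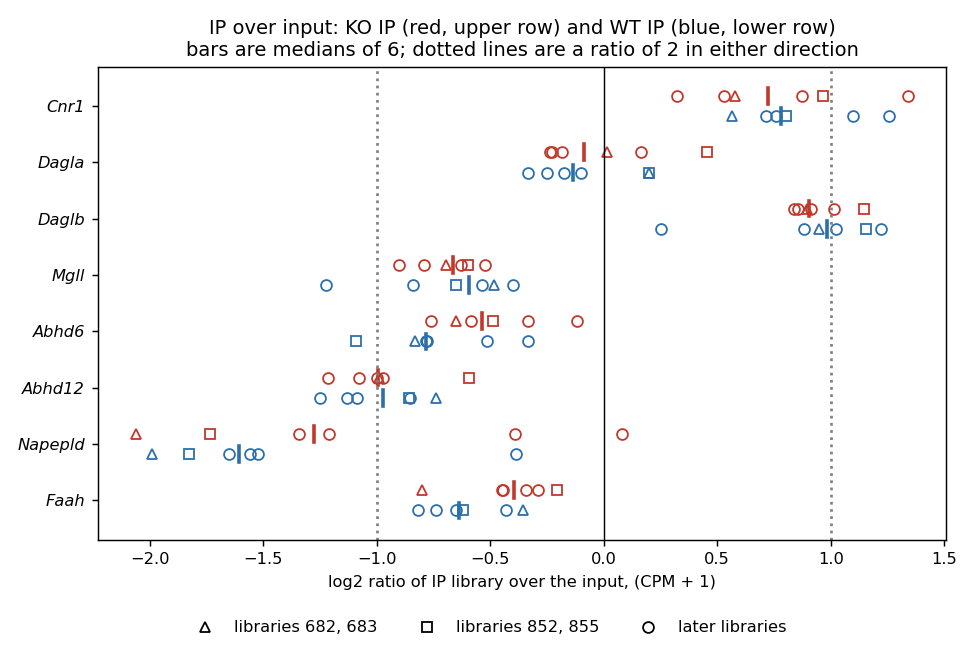
Log2((IP CPM + 1)/(input CPM + 1)) of each gene in every IP library, with KO IP above WT IP in each row; points are libraries, short bars are medians, and dotted lines at -1 and 1 mark a ratio of 2 in either direction. Cnr1 and Daglb lie right of 0 in all 12 libraries, Mgll, Abhd6, Abhd12 and Faah left of 0 in all 12, and Napepld runs from -2.06 to 0.08 in KO IP.

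The enzymes of anandamide were also mostly lower in IP than in the homogenate, and Napepld varied more between libraries than any other of the 8 genes. Napepld (ENSMUSG00000044968.16, chr5:21662901-21701396, minus strand), the phospholipase D that releases anandamide and related N-acylethanolamines, was at 31.8, 55.5 and 143 CPM in KO IP. It was at 33.4, 44.0 and 104 CPM in WT IP, against 136 CPM in input. Its high values came from 3 libraries, KO 1099 with 143 CPM, KO 1102 with 103 CPM and WT 1091 with 104 CPM, and the other 9 IP libraries did not exceed 58.1 CPM. Those 3 libraries were also the highest in the non-neuronal score, at 3.95, 3.66 and 3.18. The median log2 IP over input of Napepld was -1.28 in KO IP (-2.06 to 0.08) and -1.61 in WT IP (-1.99 to -0.38), folds of 0.413 and 0.329. Only KO library 1099 lay above the input. Without WT library 1091 the remaining 5 WT IP libraries ran from -1.99 to -1.52, which passes the rule for a depleted gene. In that setting 12.4% of all genes tested passed it.

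Between genotypes the log2 fold change of Napepld was 0.43 ± 0.30 (SE), the largest of the 8 genes, with a 95% interval of -0.23 to 1.10 and an unadjusted p of 0.180 (edgeR). It was 0.62 in the 8 later libraries and 0.0073 in the 4 earlier ones. With that score added to the model it was 0.03, and without the 3 libraries named above, an alternative chosen after the data were seen, it was 0.17. Single libraries moved it from 0.17 without KO library 1099 to 0.66 without WT library 1091, where the unadjusted p was 0.0457 and the adjusted p 0.687 (edgeR). In the fit without library 1091, 7.15% of all genes had an unadjusted p under 0.05. Over the 8 later libraries, a set chosen after the data were seen, Napepld and the score had a Pearson r of 0.889 (two-sided exact permutation p = 0.00357, Benjamini-Hochberg adjusted over the 8 genes 0.0286). Spearman's rho was 0.810 (exact permutation p = 0.0218, adjusted 0.0871), and without the 2 libraries farthest from the median score r was 0.900 (n = 6). As the set was chosen with these values in view, the p-values for the score, here and for Faah below, describe and do not test. How many of all genes vary as closely with the score was not examined. Within the 4 earlier libraries there were too few samples for such a value. In bulk samples of this kind, fewer cells of a type and less RNA per cell cannot be told apart.

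Faah (ENSMUSG00000034171.13, chr4:115967145-116017926, minus strand), the fatty acid amide hydrolase that ends anandamide signalling, was at 12.8, 17.3 and 19.9 CPM in KO IP. It was at 12.6, 14.5 and 17.8 CPM in WT IP, against 23.0 CPM in input. The groups overlapped, but 3 of 6 KO libraries lay above every WT library, and all 12 lay below the input. Relative to input its log2 median was -0.39 in KO IP and -0.64 in WT IP. The log2 fold change of KO over WT was 0.21 ± 0.14 (SE), with a 95% interval of -0.10 to 0.53 and an unadjusted p of 0.164 (edgeR). The unadjusted p was 0.0274 without WT library 682 and 0.0269 without KO library 683, with an adjusted p of 0.995 in the second case. In these fits 3.66% and 3.63% of all genes had an unadjusted p under 0.05 (edgeR). Over the later libraries Faah and the non-neuronal score had an r of 0.763 (exact permutation p = 0.0298, adjusted 0.119) and a rho of 0.810 (adjusted 0.0871), and r was 0.595 without the 2 libraries farthest from the median. The other 6 genes had adjusted p-values of 0.357 or more for r.

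**Figure D3:**
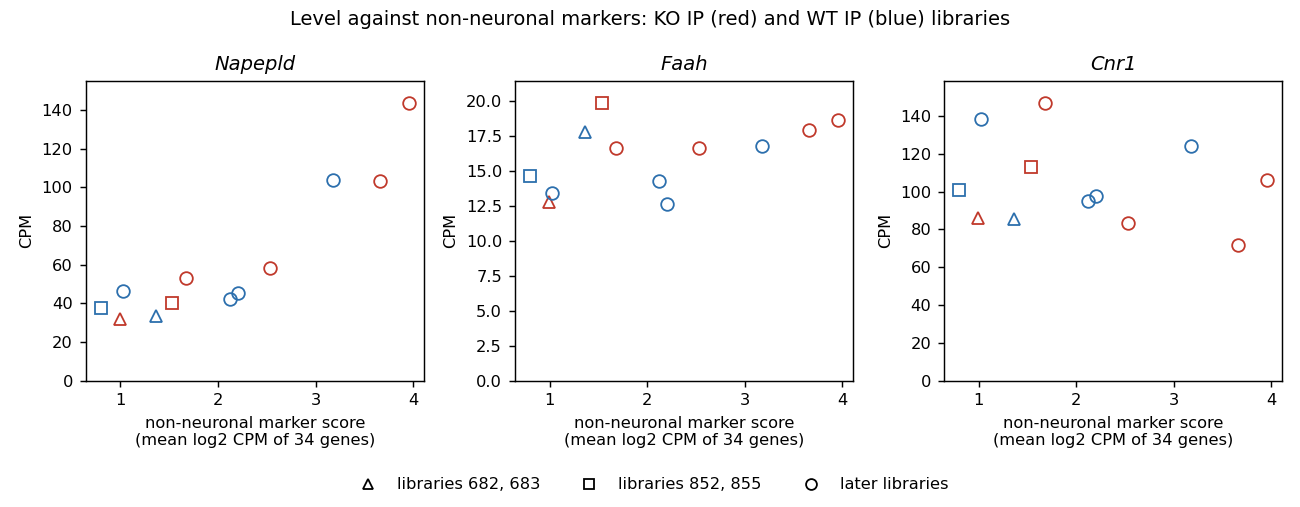
CPM (linear axes from 0) of Napepld, Faah and Cnr1 against the non-neuronal score (mean log2 CPM of 34 markers of glia and vessels) in the 12 IP libraries, with KO IP in red, WT IP in blue and library sets as symbols. Over the 8 later libraries, shown as circles, r with log2 CPM was 0.889 for Napepld, 0.763 for Faah and -0.513 for Cnr1.

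Read over all 8 genes, Cnr1 and Daglb were above the input in all 6 libraries of each genotype, where 25.6% of genes were above it in KO IP and 32.2% in WT IP. In KO IP 4 of 8 genes (Mgll, Abhd6, Abhd12 and Faah) were below the input in all 6 libraries, against 23.8% of all genes. In WT IP Napepld joined them, making 5 of 8, against 27.6% of all genes. None of the 8 was called enriched, against 4.19% of 11084 genes in KO IP and 5.83% of 11131 in WT IP, and none was called depleted, against 5.20% and 8.33%. The median log2 IP over input of the 8 genes was -0.46 in KO IP and -0.61 in WT IP, where the median over all genes was 0.07 and 0.11. Other scalings moved the median over all genes to between -0.11 and 0.19 in KO IP and between -0.07 and 0.23 in WT IP. The directions given above held under these scalings for every gene but Dagla, which lay on both sides of the input, and for Napepld in KO library 1099, which fell below the input when library size was taken over shared symbols. KO IP and WT IP were compared with the same input library, so their values are not independent, and without replicate inputs the difference has no replicate check on the input side. The input was also counted over a longer symbol list than the IP libraries, as given below.

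Levels were compared between genes as TPM, a level per kilobase of annotated exon, scaled so that each library has the same sum. Abhd12 was highest by mean, at 103 ± 9.99 TPM in KO IP and 101 ± 11.6 TPM in WT IP (SD, n = 6 each), against 225 TPM in input. Napepld exceeded it in KO libraries 1099 (189 against 117 TPM) and 1102 (127 against 93.9 TPM) and in WT library 1091 (138 against 107 TPM). In WT IP Abhd12 was followed by Cnr1 at 74.6 ± 19.1 TPM, Dagla at 68.9 ± 8.11 TPM and Napepld at 60.3 ± 38.4 TPM. Then came Abhd6 at 33.3 ± 9.73 TPM, Mgll at 32.5 ± 5.70 TPM, Faah at 8.51 ± 1.54 TPM and Daglb at 5.80 ± 1.05 TPM. Neighbours in this order overlapped in their ranges at every step but that between Mgll and Faah. Cnr1 exceeded Dagla in only 3 of 6 WT libraries, and Abhd6 exceeded Mgll in 2 of 6.

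In KO IP the order differed for Napepld, the second at 85.7 ± 60.7 TPM, and for Cnr1, the fourth at 70.4 ± 19.2 TPM, and Cnr1 there overlapped Dagla above it but not Abhd6 below it. The ranges of Mgll and Faah, and of Faah and Daglb, also did not overlap in KO IP. In input Cnr1 was only the sixth of the 8 genes, at 44.3 TPM, behind Napepld at 171 TPM, Dagla at 80.8 TPM, Abhd6 at 61.0 TPM and Mgll at 58.4 TPM. The summed level of Dagla and Daglb relative to that of the 2-AG hydrolases was 0.457 in KO IP and 0.450 in WT IP on average, against 0.244 in input. Napepld relative to Faah was 8.13 ± 4.31 in KO IP and 6.82 ± 2.92 in WT IP (SD, n = 6 each), against 11.7 in input.

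**Figure D4:**
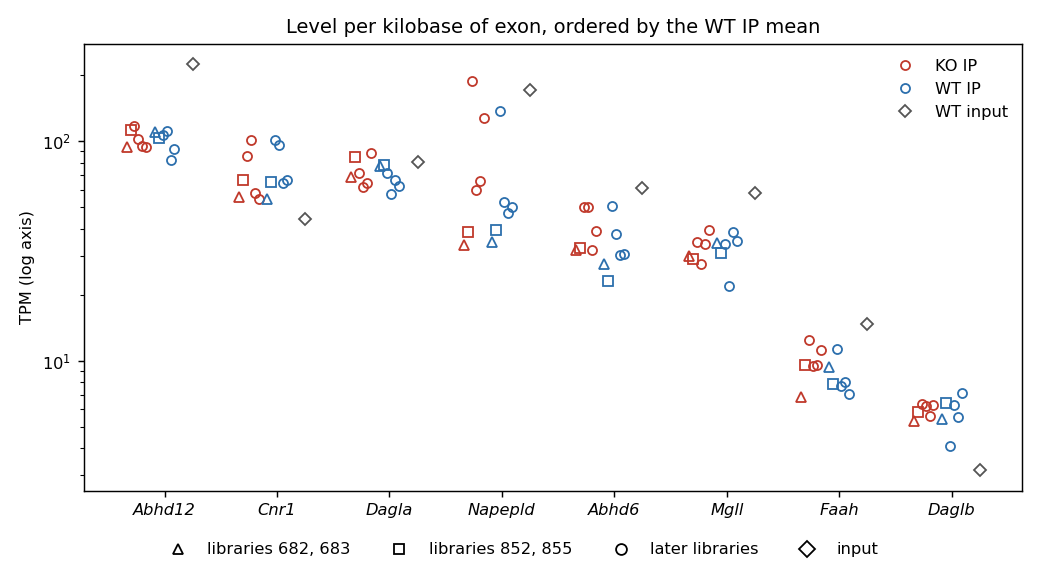
Level per kilobase (TPM, log axis) of each gene in KO IP, WT IP and input, ordered by the WT IP mean; points are libraries and symbols are library sets. By mean level Abhd12 is highest in all 3 groups, Daglb lowest, and the ranges of neighbours overlap in WT IP except between Mgll and Faah.

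The comparison of genotypes asked whether any of these mRNAs differed on the polysomes of mice labelled Gpr151-KO. None of the 8 genes passed an adjusted p of 0.05 in edgeR, where 2 of 14317 genes did (0.0140%, and 0.00698% in each direction), or in DESeq2, where 12 did (0.0838%). None had an unadjusted p under 0.05 in edgeR, a mark reached by 438 genes (3.06%). The adjusted p was 0.999 for each of the 8. No gene of the 8 had KO and WT values that did not overlap, which 0.126% of all genes had. The log2 fold change was above 0 for 7 of 8 genes, all but Cnr1, with a median of 0.07, against 50.4% and a median of 0.0018 over all genes. As given above, the widest interval, that of Napepld, still includes a log2 change of 1, so a change of that size could not be told from none in this gene, while for Dagla and Abhd12 the interval ends at 0.34 and 0.28. The p-values measure the spread between pools of mice.

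The difference of KO and WT mean log2 CPM was also taken within each set of libraries. For Abhd6 it was above 0 in all 3 sets, at 0.18 (683 against 682), 0.64 (855 against 852) and 0.19 (the later libraries). For Faah it was -0.48, 0.44 and 0.33 in the same order, for Abhd12 -0.26, 0.27 and 0.04, and for Dagla -0.19, 0.26 and 0.12. For Napepld it was -0.08, 0.10 and 0.60. The non-neuronal score differed by -0.37, 0.73 and 0.83 in these sets, and its part in the differences of the 8 genes was not tested beyond the values given with the score in the model. Of its 34 markers 32 were tested, 30 had a fold change above 0 and none passed the threshold. Of the 12 medial habenula and cholinergic markers, all tested, 1 had a fold change above 0. Their median log2 fold change was -0.14, and none passed the threshold. GABAergic markers summed to 45.1 to 304 CPM in KO IP and 13.96 to 151 CPM in WT IP. Of these markers, 5 of 5 tested had a fold change above 0, with a median log2 of 1.16, and none passed the threshold. A test of whether the genotype difference itself differed between the 4 earlier and the 8 later libraries called 0 of 14317 genes in edgeR (0.00%; 325 at an unadjusted p under 0.05) and 2 in DESeq2. Its unadjusted p for the 8 genes was 0.280 to 0.895.

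**Figure D5:**
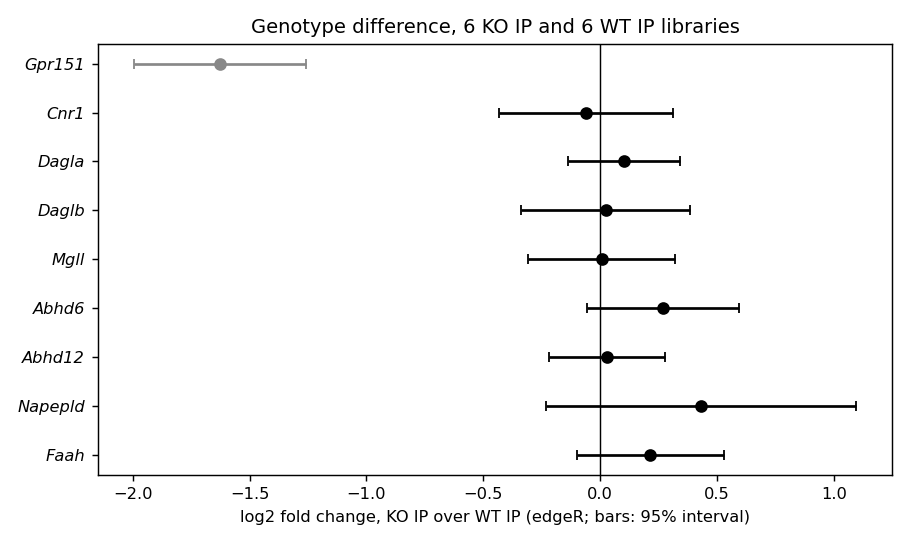
Log2 fold change of KO IP over WT IP with its 95% interval (edgeR) for Gpr151, in grey, and for each of the 8 genes. All 8 intervals include 0, that of Gpr151 lies below 0, and the interval of Napepld, -0.23 to 1.10, is the widest.

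The wider endocannabinoid pathway was followed through 37 further genes for other receptors, CB1-interacting proteins, phospholipases, other routes to anandamide, oxidation enzymes and lipid carriers. All 37 were listed and 27 were abundant enough to test. None passed the threshold or an unadjusted p under 0.05, against 0.0140% and 3.06% of all genes (edgeR). A fold change above 0 was found in 20 of 27, against 50.4% of all genes, with a median log2 of 0.13 against 0.0018. The smallest unadjusted p-values belonged to Pla2g16, a phospholipase and acyltransferase (0.120), Hrasls, an N-acyltransferase of the same family (0.154), Plcb3 (0.180) and Plcb1 (0.201), phospholipases that yield diacylglycerol, and the lipid-sensing receptor Gpr55 (0.255). Their log2 fold changes of KO over WT were 0.69 ± 0.41 for Pla2g16, 0.42 ± 0.28 for Hrasls, 0.67 ± 0.47 for Plcb3, 0.70 ± 0.52 for Plcb1 and -0.33 ± 0.27 for Gpr55 (SE; edgeR, adjusted p = 0.999 each).

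Against input, 20 of the 37 pathway genes passed the minimum level and none was called enriched in either genotype, against 4.19% of all genes in KO IP and 5.83% in WT IP. In WT IP 3 of 20, against 8.33% of all genes, were called depleted, the brain fatty acid binding protein Fabp7 (median log2 -3.79), Pla2g16 (-3.78) and Fabp5 (-2.13), where Fabp7 is a marker of radial glia and astrocytes. In KO IP, where 5.20% of all genes were called depleted, these 3 were called as well, with medians of -3.24, -3.65 and -2.08, and also Fabp3 (-1.38) and Abhd2 (-1.16), 5 of 20 in all. The second cannabinoid receptor, Cnr2, known from immune cells, reached at most 0.131 CPM in KO IP and 0.154 CPM in WT IP, against 0.165 CPM in input, and was at 0 in 3 KO and 5 WT libraries. A count of 0 allows up to 0.0466 to 0.0920 CPM in a KO IP library and 0.0513 to 0.106 CPM in a WT IP library (3 counts, counting error only). Cnrip1, a protein that binds the tail of CB1, was at 101 ± 20.5 CPM in KO IP and 111 ± 13.9 CPM in WT IP (SD, n = 6 each), against 79.7 CPM in input.

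Likeness in level was described over the 12 IP libraries as Pearson's r of log2 CPM, after the mean of each library set was removed, among 10275 genes. The libraries share depth and composition, so these values describe and do not test. The genes most like Cnr1 were Olfm3 and Nrg3 (r = 0.98 each), followed by Slc36a4, Vstm2a and Zfp874a (0.97 each). Those most like Abhd12 were the chloride transporter Clcn6 (0.90), Ept1 (0.87), Man2b2 and Slc50a1 (0.86 each) and Zdhhc9 (0.85). For Napepld, named here because its values stood out, the closest were Rgs7bp and Rora (0.996 each), of which Rora is in the list of thalamic and lateral habenula markers. Rora ranged from 154 to 1022 CPM in KO IP and from 152 to 744 CPM in WT IP, against 1247 CPM in input. The whole list of 8, in which Tcf7l2 alone had 1021 to 1506 CPM in KO IP and 1086 to 1510 CPM in WT IP, summed to 1557 to 2664 CPM in KO IP and 1600 to 2270 CPM in WT IP, against 3735 CPM in input. Of these 8 markers 6 had a fold change of KO over WT above 0, with a median log2 of 0.55, and none passed the threshold (edgeR). The part of these cells in the Napepld values was not tested. Closest to Daglb, also looked up after its values were seen, were Rn45s (0.94), Uap1 (0.93) and Mir6236 (0.92). WT library 1091, the lowest for Daglb, had 2.25% of its gene counts in Rn45s, the lowest share of the IP libraries. The cause of this likeness was not tested. Among the 8 genes themselves, Cnr1 varied opposite to Mgll (r = -0.84) and Dagla (-0.64), while Faah varied with Napepld (0.70) and Dagla with Mgll (0.65).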

How the data were processed

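The authors deposited, for each library, unnormalized counts by gene symbol. The labels' protocols name the Ovation V2 kit for cDNA amplification, and the submitters' processing notes name STAR 2.3.0e, HTSeq, DESeq2 and the mm10 build. Neither the annotation nor the strand setting is given in the sources used here. The symbol lists differed between earlier (682, 683, 852, 855) and later IP libraries (32531 against 24454 symbols). The input listed 37328 symbols but not Rn45s, a symbol that took 2.25% to 12.6% of gene counts in IP libraries. Ambiguous reads made up 3.98% in the input against 0.58% to 1.36% in IP libraries. Ratios of IP over input thus rest on unlike symbol lists, and the effect of the ambiguous reads on them was not tested. Names of the deposited tables mention saline or saccharin where the labels state no treatment, so a match of input and IP animals in treatment is not known.

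Genotypes were compared with edgeR 4.0.16 (R 4.3.3): filterByExpr, TMM, a robust quasi-likelihood fit with library set (682/683, 852/855, later) and genotype, two-sided, Benjamini-Hochberg threshold 0.05. DESeq2 1.42.0 was an alternative. With 1 input, IP over input was called by size: at least 2 times, or at most 0.5 times, in all 6 libraries, with a pseudocount of 1 CPM and at least 5 CPM in the IP mean or in input. TPM used GENCODE M21 exon lengths. Rows that name no gene entered neither totals nor tests, and 9.44% to 16.6% of alignments per IP library lay outside genes. The 30 pairs of libraries within a group differed beyond sampling noise (chi-square of their counts divided by its degrees of freedom, 22.3 to 797). Scripts were tested on simulated data.

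The 8 genes and the lists were chosen with earlier results of these data known. Genes named were Gpr151, the 8, the 5 pathway genes with the smallest p, those called against input, and the 5 genes most like Cnr1 and like the highest of the 8. Cnr2, Cnrip1, Rgs7bp, Rora, Tcf7l2, the genes like Daglb and the depleted genes in KO IP were added after their values were seen.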

Additional observations from a re-analysis of the deposited data

Results flagged for a closer look

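For 18 groups of 6 libraries (8 genes and Gpr151 in KO IP and WT IP), the gap of the highest or lowest library to its neighbour was compared with the group's range, and chance passes the critical value of 0.625 in about 1 in 20 groups. Napepld in WT library 1091 stood far from the other WT IP libraries, at 104 CPM, with a gap of 0.813 of the range. Abhd12 in KO library 855 stood above the other KO IP libraries, at 84.1 CPM, with a gap of 0.658 of the range. Library 1091 had the highest non-neuronal score of the WT IP libraries (3.18). The part of that score in this Napepld value was not tested beyond the correlation and the fit with the score given above.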

How the results depend on the processing

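No paired analysis was possible because the labels number no replicates, and numbers that follow accession order cannot pair libraries; library set was the block instead, and without it the count below was also 2. None of the 8 genes was called between genotypes under any alternative. The count over all genes, 2, was 12 with DESeq2, 1 with a 1 CPM filter, 0 in the later libraries alone and 1 without the 3 libraries highest in non-neuronal markers (1099, 1102 and 1091, chosen after the data were seen); leaving out 1 library gave 0 to 2, with 0 without library 683. A count of 0 means that Gpr151 itself was not called (adjusted p 0.424 in the later libraries and 0.0538 without 683), while its log2 fold change was -1.54 in both and -1.82 to -1.49 over all alternatives. DESeq2 called the interaction for 2 genes.

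Small fold changes turned round. In the earlier libraries alone they were 0.083 for Cnr1, -0.039 for Daglb, -0.088 for Mgll, -6.90e-05 for Abhd12 and -0.027 for Faah. With the non-neuronal score in the model Cnr1 was at 0.030 and Mgll at -0.086. Without the 3 libraries Cnr1 was at 0.061, Daglb at -0.087 and Mgll at -0.085. Leaving out 1 library gave -0.18 to 0.030 for Cnr1, -0.093 to 0.11 for Daglb, -0.086 to 0.073 for Mgll and -0.030 to 0.087 for Abhd12. The cause was not tested.

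Against input, 464 genes were enriched and 576 depleted in KO IP, and 649 and 927 in WT IP. A fold of 1.5 gave 861 and 1083 in KO IP and 1317 and 1493 in WT IP, a pseudocount of 5 CPM gave 342 and 612 depleted, and the edgeR fit gave 901 and 1203 higher. Leaving out 1 library gave 463 to 638 enriched and 578 to 858 depleted in KO IP, and 651 to 805 and 933 to 1377 in WT IP. At a fold of 1.5, 2 of the 8 genes were called in KO IP (Daglb and Abhd12) and 1 in WT IP (Abhd12). Of all genes tested, 7.77% were enriched and 9.77% depleted in KO IP at that fold, and 11.8% and 13.4% in WT IP. The edgeR fit called 1 in each, and leaving out 1 library called 0 to 1 in WT IP (Napepld, without library 1091). In each of 3 alternatives 6 of 8 genes kept their place in the order of levels. Depth limits the 8 genes little, with 333 counts or more in every library; the number of pools and the single input do.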
